A study of Mus musculus with 24 samples.

Results

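The genes that mark dendritic cells or their migratory maturation, Ccr7, Fscn1, Ccl17, Ccl22, Zbtb46, Itgax, Batf3, Cd209a, Flt3 and Ido1, were followed through 24 libraries. They were chosen by symbol, and all 10 were among the 54532 genes of the deposited table. Poly(A) RNA was sequenced from C57BL/6N mouse bone marrow-derived macrophages (BMDMs), grown in medium conditioned by L929 cells, and from marrow-derived dendritic cell cultures (BMDCs) raised in IL-4 plus GM-CSF. In all groups Tmem173, the gene for STING, was floxed on both alleles (Tmem173 fl/fl) and tamoxifen had been given. Libraries labelled CRE also carried a tamoxifen-inducible Cre under the promoter of Lyz2, a gene of macrophages and neutrophils, and libraries labelled WT did not. Cells were left as controls (CT) or treated with DMXAA (DX), an agonist of mouse STING, which gave 8 groups of 3 libraries, numbered 1 to 3. The design text gives the DMXAA dose as 40 µM and the study's methods give it as a mass per volume, so the concentration is uncertain. The study's methods give more than 1 age for tamoxifen injection, neonatal and young adult, and the sources used here do not say which applies to the marrow donors or whether the libraries of a group came from separate mice or cultures. The p-values therefore measure only the spread between these libraries, which may be technical.

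Conventional dendritic cells express the transcription factor Zbtb46 and Flt3, the receptor for the growth factor that drives their development, and the cross-presenting lineage needs the transcription factor Batf3. Itgax encodes the integrin CD11c, which macrophages can also carry, and Cd209a encodes a C-type lectin of monocyte-derived dendritic cells. Maturing dendritic cells gain Ccr7, the receptor for Ccl19 and Ccl21 that guides them to lymph nodes, and Fscn1, which bundles the actin of their protrusions. They can also secrete Ccl17 and Ccl22, the ligands of Ccr4 on T cells, and express Ido1, which starts the conversion of tryptophan to kynurenine.

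Total counts lay between 15657347 and 18912887 per library. The 4 BMDM libraries numbered 3 stood apart: the summed level of 10 fibroblast markers was 14498 to 23101 CPM (counts scaled to the total of each library) against 45.8 to 727.4 CPM in the other 8 BMDM libraries, and that of 8 leukocyte markers was 1.49 to 15.2 CPM against 3612 to 4894 CPM. They are given apart and enter a test only where stated. Among the BMDCs, both CRE-labelled libraries numbered 2 stood apart, with summed neutrophil markers of 351.8 CPM in the control and 150.6 CPM with DMXAA against 10.7 to 31.6 CPM in the other 10, and summed macrophage markers of 2243 and 2079 CPM against 6093 to 9159 CPM. BMDC libraries were also nearest across the labels. WT number 3 differed from CRE number 1 by a median of 0.0697 per gene on the log2 scale in controls and 0.0871 with DMXAA, and WT number 2 from CRE number 3 by 0.0866 and 0.0848, while all other pairs of 1 treatment differed by 0.114 to 0.459. These near pairs still differed by more than sampling noise (chi-square per degree of freedom of 3.91 to 6.33) and were kept as separate samples. Tmem173 itself was at 19.7 to 36.8 FPKM (fragments per kilobase of transcript, scaled to library size) in the CRE-labelled and at 28.8 to 55.3 FPKM in the WT-labelled BMDCs, ranges that overlap, so its transcript did not check these labels.

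Ccl22 and Ccl17 lie on the plus strand of chromosome 8 in GRCm38, at 94745590 to 94751699 (ENSMUSG00000031779) and at 94810453 to 94812036 (ENSMUSG00000031780), 58754 bases apart. Fscn1 lies on the plus strand of chromosome 5 at 142960343 to 142973185 (ENSMUSG00000029581). The RefSeq promoters of these 3 genes, 250 bases before and 50 after a transcription start, are shown because with DMXAA in WT-labelled BMDCs Ccl22 and Fscn1 rose and Ccl17 did not pass the test. The windows are chr8:94745434-94745733, chr8:94810203-94810502 and chr5:142960105-142960404, all in GRCm38 and on the plus strand, and capitals mark matches to the motifs given after them.
Ccl22: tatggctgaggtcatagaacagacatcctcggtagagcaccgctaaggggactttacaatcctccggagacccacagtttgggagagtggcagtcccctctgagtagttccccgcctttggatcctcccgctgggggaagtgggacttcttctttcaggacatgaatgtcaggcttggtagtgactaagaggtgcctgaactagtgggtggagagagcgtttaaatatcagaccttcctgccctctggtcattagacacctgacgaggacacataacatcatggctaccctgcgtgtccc
Ccl17: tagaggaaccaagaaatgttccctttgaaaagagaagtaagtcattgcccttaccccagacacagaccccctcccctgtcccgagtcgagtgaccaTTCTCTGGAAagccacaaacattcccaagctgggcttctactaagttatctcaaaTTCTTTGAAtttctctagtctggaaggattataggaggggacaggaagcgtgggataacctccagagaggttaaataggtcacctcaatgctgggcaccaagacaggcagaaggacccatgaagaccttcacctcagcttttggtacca
Fscn1: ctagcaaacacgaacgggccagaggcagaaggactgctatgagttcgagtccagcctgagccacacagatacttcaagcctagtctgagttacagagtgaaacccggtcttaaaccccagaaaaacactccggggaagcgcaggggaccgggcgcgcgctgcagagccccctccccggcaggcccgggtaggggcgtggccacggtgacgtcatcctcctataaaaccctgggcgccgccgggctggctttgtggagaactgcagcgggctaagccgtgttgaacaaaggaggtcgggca
The 5 motifs searched on both strands were the interferon-stimulated response element GAAANNGAAA, the STAT site TTCNNNGAA, the STAT6-type site TTCNNNNGAA, the AP-1 site TGANTCA and the kappaB motif. Of 32851 mouse promoter windows of 300 bases, 3.44%, 8.3%, 6.95%, 7.81% and 4.51% held them, in that order. The Ccl17 window held the STAT6-type match TTCTCTGGAA, with its first base at -154 from the start, and the STAT match TTCTTTGAA at -99. The Ccl22 and Fscn1 windows held none of the 5, which says only that these letters are not in these windows. A RefSeq promoter was at hand for 8 of the 10 members, not for Ccr7 and Ido1. Batf3 held the STAT site, Itgax the STAT6-type and AP-1 sites, Zbtb46 the AP-1 site, and Cd209a and Flt3 none. The Zbtb46 and Batf3 windows lie inside the annotated genes, so they belong to internal starts. The Zbtb46 window is chr2:181424339-181424638 on the minus strand, in a gene at 181387762 to 181459426.

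BMDCs expressed most of these genes at levels far above those of BMDMs, and Flt3 and Ido1 were low in both. In WT-labelled control BMDCs the order by mean level was Ccl17 at 3923 ± 2172 FPKM (SD, n = 3), Ccl22 at 502.3 ± 105.2, Itgax at 298.8 ± 11.1, Ccr7 at 112.7 ± 39.6, Batf3 at 66.5 ± 8.47, Fscn1 at 39.8 ± 18.1, Cd209a at 4.98 ± 0.935, Zbtb46 at 3.42 ± 0.558, Flt3 at 0.291 ± 0.185 and Ido1 at 0.21 ± 0.0926 FPKM. The libraries of neighbours in this order overlapped for Batf3 with Fscn1 and for Flt3 with Ido1, and for no other pair. The plot of all libraries shows that the 12 BMDC and the 8 BMDM libraries numbered 1 and 2 overlapped in Fscn1 and Ido1 and were apart in the other 8 members. These genes were chosen as markers of dendritic cells, and of all 13368 genes at a level of 1 FPKM or more in at least 2 of the 20 libraries, 13% were apart in either direction.

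**Figure D1:**
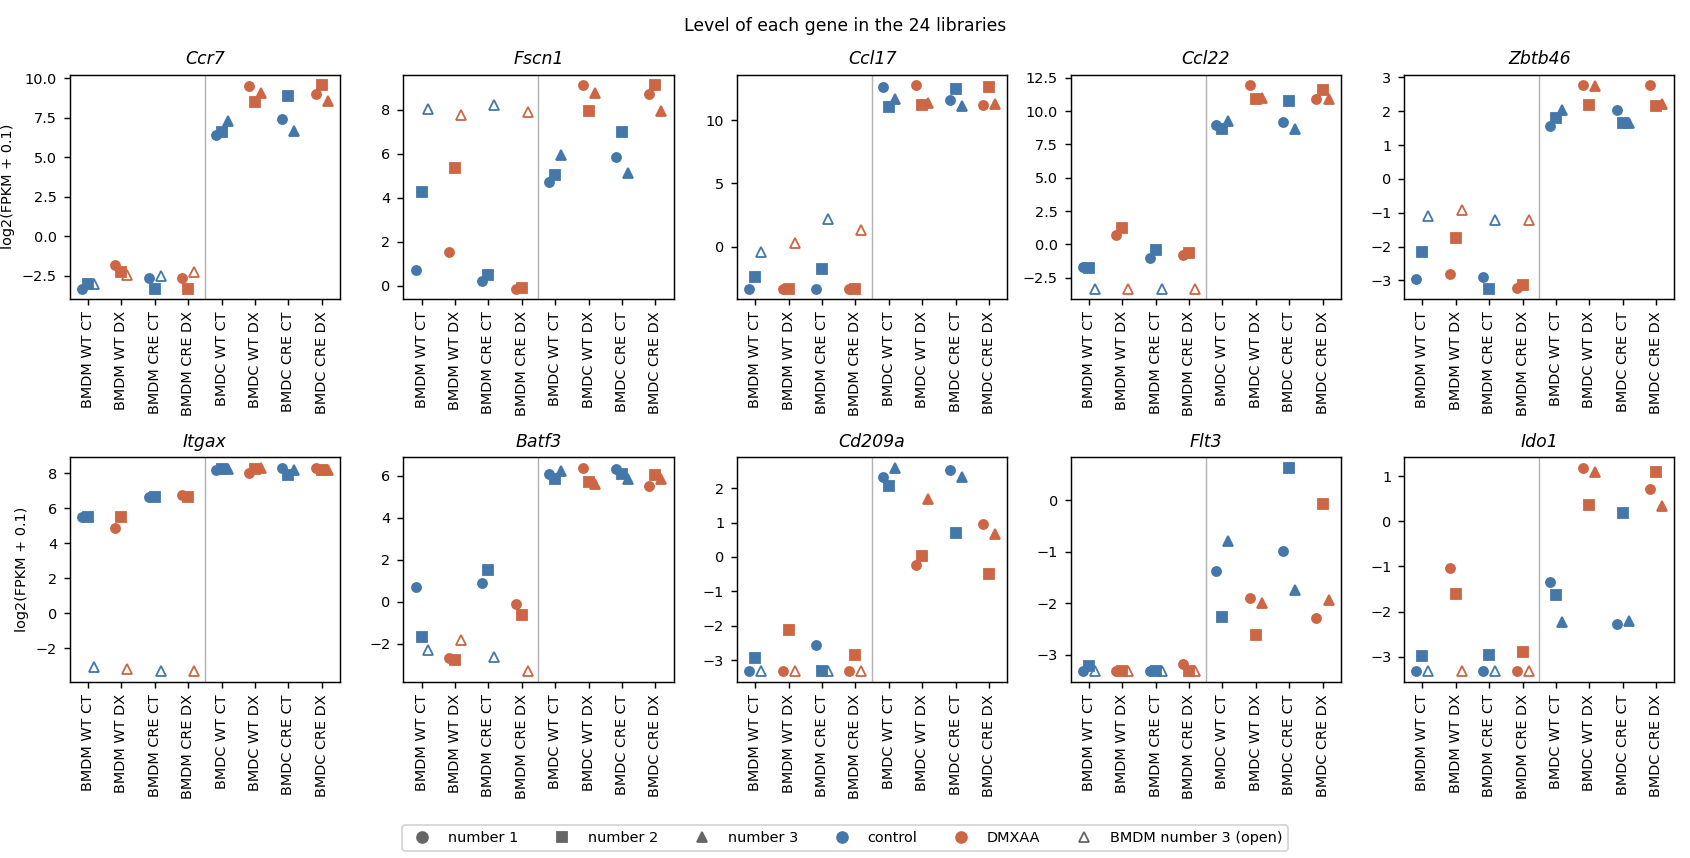
Level of the 10 genes in each of the 24 libraries as log2(FPKM + 0.1), by group, with BMDMs left of the grey line and BMDCs right of it. Filled symbols are the libraries that entered the reported tests. Open triangles are the 4 BMDM libraries numbered 3, in which Fscn1 lies at 216.4 to 299.4 FPKM and Ccl22 and Itgax lie at or near 0.

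Which of the genes separated the cell types was tested with edgeR's quasi-likelihood test on counts, in 12 BMDC and 8 BMDM libraries, with Benjamini-Hochberg adjustment over 13368 genes. The low-value filter of that fit was an FPKM no lower than 1 in 2 or more libraries. Ccr7, Ccl17, Zbtb46, Cd209a and Ido1 met it through the BMDCs alone, with no BMDM library numbered 1 or 2 above 0.388 FPKM, so their difference was largely set by the filter and is given as a description. Fscn1, Ccl22, Itgax and Batf3 met it in BMDMs too. Of these 4, 3 were higher in BMDCs in WT-labelled controls, where 28.5% of all genes were called in either direction. All 4 were higher in CRE-labelled controls (27.4% of all genes called), in WT-labelled DMXAA cells (30.6%) and in CRE-labelled DMXAA cells (36.7%). Flt3 was below the filter. In bulk RNA, fewer cells of a type and less RNA per cell cannot be told apart. Without WT-labelled DMXAA BMDM number 1, Fscn1 was no longer called in that group (3.36 ± 1.15, adjusted p = 0.054, edgeR).

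Ccr7 and the 2 chemokines made the widest gap. Ccr7 had 1 to 7 counts per BMDM group of 2 libraries and 12957 to 49518 per BMDC group of 3, a ratio of CPM of 9216 in WT-labelled controls (95% interval 1654 to 364057, counting error only). Ccl17 had 0 to 2 counts per BMDM group, and its ratio was 81978 in WT-labelled controls (14713 to 3237996) and at least 20247 with DMXAA, where both BMDM libraries were at 0 and 3 counts over the group were taken as the floor. Ccl22, with 19 counts in the WT-labelled control BMDMs, was 2530 times higher in BMDCs (1620 to 4203). In WT-labelled controls, Zbtb46, Batf3 and Cd209a had smaller ratios than these genes. Zbtb46 was at 0.00592 to 0.195 FPKM in BMDMs numbered 1 and 2 and at 2.88 to 6.77 FPKM in BMDCs, with a ratio of 44.5 (30.5 to 67.7) in WT-labelled controls. Batf3 was at 46 to 83.3 FPKM in BMDCs and at 0.0433 to 2.71 FPKM in those BMDMs (log2 fold change 6.20 ± 0.56, SE, adjusted p = 1.1e-06, in WT-labelled controls by edgeR). Cd209a was at 0.609 to 5.95 FPKM in BMDCs and had 1 to 3 counts per BMDM group, with a ratio of 324.4 (57.9 to 12839) in WT-labelled controls.

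Itgax and Ido1 made smaller ratios, and Flt3 was rare throughout. Itgax was at 241.3 to 321.2 FPKM in BMDCs, at 29.8 to 46.1 FPKM in WT-labelled BMDMs and at 98.2 to 107.7 FPKM in CRE-labelled BMDMs, so both cell types held CD11c transcripts. Its log2 fold change of BMDCs over BMDMs was 2.67 ± 0.20 in WT-labelled controls (adjusted p = 1.65e-07, edgeR) and 1.51 ± 0.19 in CRE-labelled controls (adjusted p = 2.11e-05). Flt3 reached 0.0638 to 1.45 FPKM in BMDCs, and 1.45 and 0.854 FPKM were the CRE-labelled libraries numbered 2. BMDMs held 0 or 1 Flt3 counts per group, so the ratio was 74 (13 to 2950) in WT-labelled controls. With no FPKM filter, a total of 10 counts over the libraries was still required. Flt3 met this through the BMDCs alone, so its difference is also given as a description. Ido1 had 22 counts in the 3 WT-labelled control BMDCs and 1 in the BMDMs, a ratio of 15.6 (2.53 to 645.8). The BMDCs also held 10 to 11 of 12 macrophage markers at an FPKM of at least 1, with summed levels of 2079 to 9159 CPM against 11416 to 23319 CPM in BMDMs numbered 1 and 2.

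Fscn1 was not confined to BMDCs. It was at 1.56 and 19.2 FPKM in WT-labelled control BMDMs numbered 1 and 2, at 2.79 and 40.7 FPKM with DMXAA, and at 0.819 to 1.31 FPKM in CRE-labelled BMDMs. WT-labelled BMDM number 2 was therefore the high one in both treatments, and its control level was near the lowest BMDC value of 26.5 FPKM. In those 2 libraries the summed fibroblast markers were 727.4 and 598.8 CPM, against 45.8 to 97.2 CPM in the other 6 libraries, and their part in the Fscn1 level was not tested. In WT-labelled controls Fscn1 did not pass the test between cell types (log2 fold change 1.88 ± 0.96, adjusted p = 0.162, edgeR), and without BMDM number 2 it did (4.65 ± 1.31, adjusted p = 0.0193). The BMDM libraries numbered 3 had Fscn1 at 261.9, 216.4, 299.4 and 240.2 FPKM beside 0 to 0.0175 FPKM of Itgax, 0 counts of Ccl22 and 0.0213 to 0.103 FPKM of Ccr7. Mesenchymal cells such as fibroblasts also express Fscn1, and its level there was above all 6 control BMDC libraries.

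With DMXAA, WT-labelled BMDCs gained the maturation genes Ccr7, Fscn1, Ccl22 and Ido1 and, to a lesser degree, Zbtb46. These 5 of the 9 members tested rose and none fell, where 32.2% of all 12126 genes were called in either direction (edgeR, 12 BMDC libraries, with an FPKM no lower than 1 in 3 or more). The median log2 fold change of the 9 was 0.76, beside 0.01 over all genes. Flt3 was below the filter, and Ido1 met it only through the 6 DMXAA libraries and CRE-labelled control number 2. With no filter the count was also 5, and Ido1 was among them (3.05 ± 0.77, adjusted p = 0.0134). Summed mast cell and basophil markers (5 genes) went from 178, 452.7 and 265.1 CPM in WT-labelled controls to 85.9, 219.5 and 133.1 CPM with DMXAA, and from 266.2, 58.1 and 489.2 to 130.5, 34.5 and 206.9 CPM in CRE-labelled BMDCs, and their part in these changes was not tested.

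Ccr7, the lymph-node homing receptor (ENSMUSG00000037944, chromosome 11, 99144196 to 99155077, minus strand), was at 84.9, 95.3 and 158.1 FPKM in the WT-labelled controls and at 732.1, 360.1 and 532.7 FPKM with DMXAA. The groups did not overlap, and within numbers 1, 2 and 3 the level was 8.62, 3.78 and 3.37 times that of the control. Its log2 fold change was 2.23 ± 0.52 (adjusted p = 0.00686, edgeR). Fscn1 was at 26.5, 32.4 and 60.4 FPKM in controls and at 555.8, 248.2 and 429.2 FPKM with DMXAA. Within numbers 1, 2 and 3 it was 21, 7.67 and 7.1 times the control, and it rose by 3.33 ± 0.54 on the log2 scale (adjusted p = 0.000774).

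Of the 2 chemokine genes, Ccl22 rose and Ccl17 did not pass the test. Ccl22 was at 487.6, 405.3 and 614.1 FPKM in controls and at 4057, 1913 and 2012 FPKM with DMXAA, with no overlap, a log2 fold change of 2.37 ± 0.51 (adjusted p = 0.00419, edgeR). Ccl17 was at 6338, 2128 and 3302 FPKM in controls and at 7090, 2344 and 2604 FPKM with DMXAA. Each DMXAA library held 0.789 to 1.12 times the Ccl17 of the control of the same number, and the groups overlapped (log2 fold change 0.00 ± 0.56, adjusted p = 1). Ccl22 was thus at 7.69%, 19% and 18.6% of the Ccl17 FPKM in controls and at 57.2%, 81.6% and 77.3% with DMXAA. In CRE-labelled BMDCs it was at 18.9%, 31.5% and 19.1% in controls and at 83.7%, 49.8% and 77.5% with DMXAA. Ccl17 remained the more abundant of the 2 in all 12 BMDC libraries, as the plot of their ratio shows. FPKM was scaled to an effective library size, 1.03 to 1.16 times the total counts in control BMDCs and 0.797 to 0.893 times with DMXAA. In CPM Ccl17 was lower with DMXAA in every pair, at 3366, 1241 and 1972 in WT-labelled controls and 2906, 1036 and 1195 with DMXAA.

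**Figure D2:**
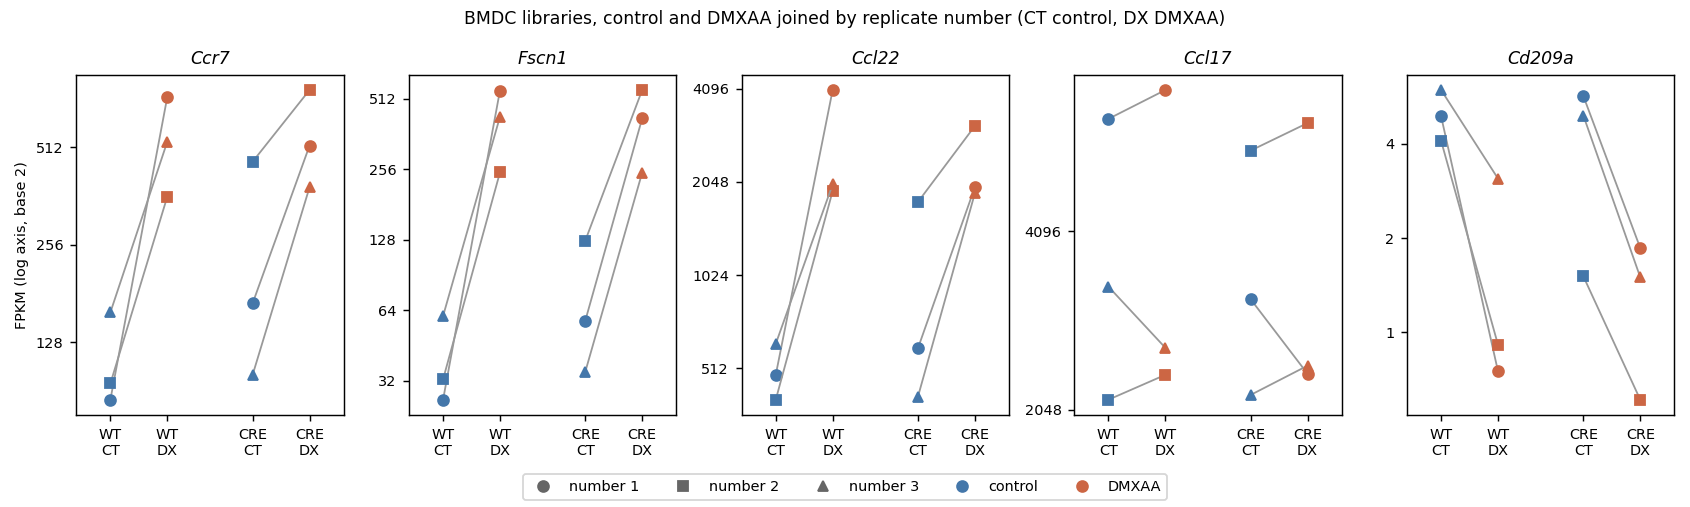
FPKM of Ccr7, Fscn1, Ccl22, Ccl17 and Cd209a in the 12 BMDC libraries, on log axes of base 2, with lines joining control and DMXAA libraries of the same label and number. Lines rise in all 6 pairs for Ccr7, Fscn1 and Ccl22, fall in all 6 for Cd209a and go both ways for Ccl17. For Ccl17 this depends on the scaling of FPKM, and in CPM its level is lower with DMXAA in all 6 pairs.

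**Figure D3:**
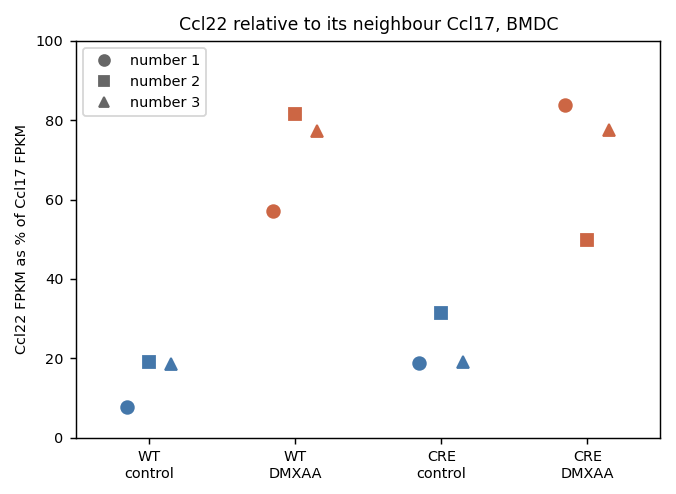
Ccl22 FPKM as a percentage of Ccl17 FPKM in each of the 12 BMDC libraries, by label and treatment. Controls lie between 7.69% and 31.5% and DMXAA libraries between 49.8% and 83.7%.

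Ido1, which restrains T cells, was low in WT-labelled controls at 0.295, 0.223 and 0.112 FPKM and reached 2.18, 1.19 and 2.03 FPKM with DMXAA. These levels rest on 4 to 10 counts per control library and 33 to 57 per DMXAA library, and the log2 fold change was 3.06 ± 0.78 (adjusted p = 0.011, edgeR). Within numbers it was 7.38, 5.32 and 18.2 times the control. Zbtb46 was at 2.88, 3.4 and 3.99 FPKM in controls and at 6.76, 4.46 and 6.58 FPKM with DMXAA, apart but by a small step of 0.76 ± 0.23 (adjusted p = 0.0257). In CPM its groups overlapped, at 25.3, 32.8 and 39.5 in controls and at 45.9, 32.6 and 49.9 with DMXAA. Its call was lost when any of WT-labelled control numbers 1 or 2 or DMXAA numbers 1 or 3 was left out.

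The lectin and the remaining identity genes did not pass the reported test in WT-labelled BMDCs. Cd209a was at 4.9, 4.09 and 5.95 FPKM in controls and at 0.75, 0.912 and 3.1 FPKM with DMXAA, which did not overlap. Its log2 fold change was -1.66 ± 0.63 (adjusted p = 0.0637, edgeR). Other settings were split. It was not called with no filter (0.0647, edgeR). It was called by DESeq2 (0.028), by limma with either pseudocount (0.0314 and 0.0371) and by edgeR with a replicate block (0.0209) or only the groups compared (0.0395). Itgax stayed between 260.3 and 321.2 FPKM in both groups (-0.05 ± 0.15, adjusted p = 0.859). Batf3 was at 68.4, 57.3 and 73.9 FPKM and then 83.3, 51.7 and 48.6 FPKM (-0.15 ± 0.22, adjusted p = 0.661). Flt3 was at 0.288, 0.107 and 0.478 FPKM in controls and at 0.17, 0.0638 and 0.15 FPKM with DMXAA, and with no filter its log2 fold change was -1.20 ± 0.90 (adjusted p = 0.423).

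**Figure D4:**
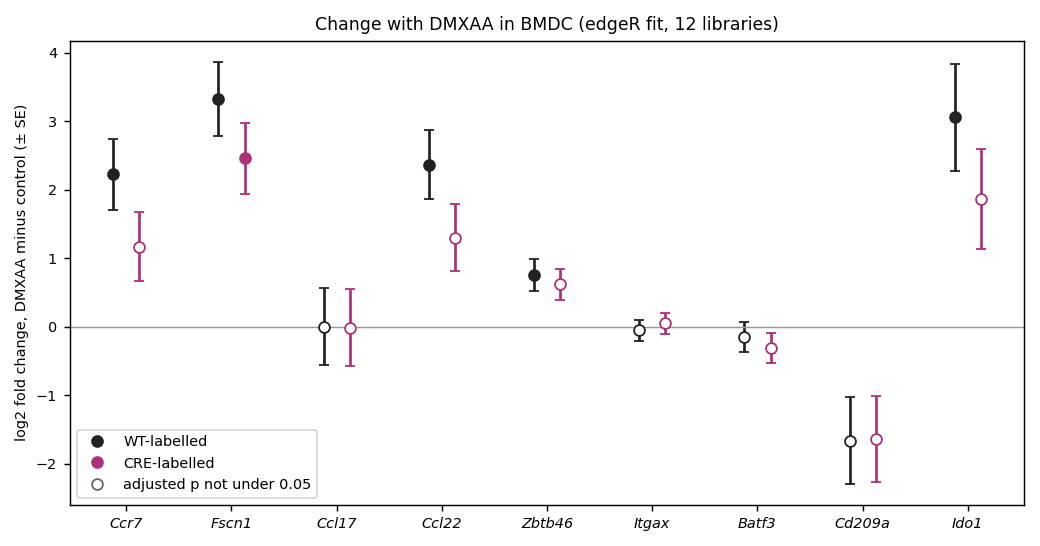
Log2 fold change with DMXAA (± SE) of each gene in WT-labelled and CRE-labelled BMDCs, from edgeR. Filled points passed an adjusted p of 0.05 and open points did not, and 5 of 9 genes are filled for WT and 1 of 9 for CRE. This fit does not pair libraries by number. With a replicate block within genotype 6 genes were called for CRE, and the interaction of genotype with DMXAA called 0 of 9.

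In CRE-labelled BMDCs 1 of the 9 members tested, Fscn1, passed the test, where 25.4% of all genes were called. Fscn1 was at 57.7, 126.9 and 34.9 FPKM in controls and at 422.6, 558.7 and 247.9 FPKM with DMXAA (2.46 ± 0.52, adjusted p = 0.00505, edgeR). Ccr7 was at 168.6, 462.1 and 101.3 FPKM and then 517.7, 769.8 and 384.9 FPKM, an overlap made by control number 2 (1.17 ± 0.50, adjusted p = 0.116). Ccl22 was at 594.9, 1765 and 415 FPKM and then 1970, 3105 and 1883 FPKM (1.30 ± 0.49, adjusted p = 0.074), without overlap. Control number 2 was the highest CRE-labelled control in Ccr7, Fscn1, Ccl17, Ccl22, Flt3 and Ido1 and the lowest in Cd209a, and the part of its raised neutrophil markers in these levels was not tested. Ido1 was at 0.107, 1.04 and 0.117 FPKM and then 1.53, 2.04 and 1.16 FPKM (1.87 ± 0.73, adjusted p = 0.0834). Cd209a was at 5.69, 1.51 and 4.93 FPKM and then 1.86, 0.609 and 1.5 FPKM (-1.64 ± 0.63, adjusted p = 0.0804). Zbtb46 was at 3.97, 3.02 and 3.02 FPKM and then 6.77, 4.35 and 4.55 FPKM (0.62 ± 0.23, adjusted p = 0.0705). Of the 9 members, 6 had an unadjusted p under 0.05.

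This count changed with the fit and with the libraries used. Control and DMXAA libraries of the same number deviated together within each label, and with the replicate number as a block within genotype 6 members were called in each label, where 48.7% (WT) and 42.7% (CRE) of all genes were. In CRE-labelled BMDCs these were Fscn1 (2.59 ± 0.28, adjusted p = 9.12e-05, edgeR), Ccl22 (1.55 ± 0.28, 0.00168), Ccr7 (1.40 ± 0.28, 0.00272), Ido1 (2.24 ± 0.55, 0.00867) and Zbtb46 (0.61 ± 0.16, 0.011), which rose, and Cd209a, which fell by 1.60 on the log2 scale (SE 0.33, adjusted p = 0.00349). In WT-labelled BMDCs the block added Cd209a (-1.85 ± 0.32, adjusted p = 0.00104). Without both CRE-labelled libraries numbered 2, an alternative chosen after seeing the data, 5 members and 31.4% of all genes were called in CRE-labelled BMDCs: Ccr7 (1.72 ± 0.40), Fscn1 (2.83 ± 0.50), Ccl22 (1.91 ± 0.37), Ido1 (3.51 ± 0.57) and Cd209a (-1.69 ± 0.57). Without CRE-labelled control number 2 alone the count was also 5, beside 27.5% of all genes.

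Between the labels no member was called in BMDCs. With DMXAA 0 of 9 members were called and 0% of all genes, in controls 0 of 9 and 0%, and in the interaction of genotype with DMXAA 0 of 9 and 0%. DESeq2 and limma also called 0 members at an adjusted p of 0.05, and 0, 1 and 0 members had an unadjusted p under 0.05. That 1 was Ccr7 in controls, with a log2 difference of CRE over WT of 1.12 ± 0.50 (adjusted p = 1, edgeR), which was 0.27 without CRE-labelled control number 2. The interaction of Ccr7 was -1.06 ± 0.71, that of Fscn1 -0.87 ± 0.70 and that of Ccl22 -1.07 ± 0.68, each with an adjusted p of 1. A p that misses the threshold does not show that the labels act alike, and the nearness of BMDC libraries across labels is given above.

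BMDMs held only 4 of the 10 members above the filter: Fscn1, Ccl22, Itgax and Batf3. In WT-labelled BMDMs numbered 1 and 2, Ccl22 rose and Batf3 fell with DMXAA, 2 of 4 tested beside 39.2% of all 11569 genes (edgeR, 8 libraries). In CRE-labelled BMDMs 0 of 4 passed, beside 10% of all genes, with 0 at an unadjusted p under 0.05 and 0 by DESeq2 or limma. Ccl22 met the filter only through the 2 WT-labelled DMXAA libraries, and its WT response was also called with no filter (3.16 ± 0.46, adjusted p = 0.00265, edgeR). Batf3 met it only through controls: WT-labelled number 1 and both CRE-labelled ones, at 1.53, 1.72 and 2.71 FPKM. Each gene was thus admitted by its higher side, so the count of 2 rests in part on the filter. Fscn1, higher with DMXAA in both numbers of the WT label, did not pass (0.96 ± 1.30, adjusted p = 0.611), and its values are given above.

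Ccl22 was at 0.211 and 0.184 FPKM in WT-labelled control BMDMs (10 and 9 counts) and at 1.52 and 2.26 FPKM with DMXAA (40 and 76 counts), a log2 fold change of 3.14 ± 0.43 (adjusted p = 0.0019, edgeR). In CRE-labelled BMDMs it was at 0.385 and 0.629 FPKM and then 0.466 and 0.533 FPKM (-0.05 ± 0.40, adjusted p = 0.957). The rise was thus seen in the WT-labelled libraries, at a level still far below every BMDC. The interaction of genotype with DMXAA was -3.19 ± 0.58 (adjusted p = 0.0401, edgeR), the 1 member of 4 called, where 3.66% of all genes were. As the filter was met only through the WT-labelled DMXAA libraries, where Ccl22 is high, the interaction is read as a description. This call was lost with no filter (adjusted p = 0.0602), under limma, and without WT-labelled number 1 of either treatment or any single CRE-labelled library (adjusted p of 0.0546 to 0.216).

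Batf3 was at 1.53 and 0.208 FPKM in WT-labelled control BMDMs (50 and 7 counts) and at 0.0554 and 0.0433 FPKM with DMXAA (1 count each). It fell by 4.13 on the log2 scale (SE 1.17, adjusted p = 0.0303, edgeR), and the call was lost without control number 1 (-2.10 ± 0.83, adjusted p = 0.0976) or either DMXAA library (adjusted p of 0.123 and 0.126). In CRE-labelled BMDMs Batf3 was at 1.72 and 2.71 FPKM and then 0.829 and 0.543 FPKM (-1.71 ± 0.81, adjusted p = 0.23).

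Between the labels in DMXAA-treated BMDMs, 2 of 4 members were called, beside 19.2% of all genes. Ccl22 was lower in CRE-labelled libraries (-1.87 ± 0.40, adjusted p = 0.0216, edgeR) and Itgax was higher (1.5 ± 0.21, adjusted p = 0.00561). Ccl22 met the filter only through the WT-labelled DMXAA libraries, the higher side of this comparison, so its call is read as a description. Itgax was at 29.8 and 46.1 FPKM under the WT label and at 107.7 and 99.9 FPKM under the CRE label. It was also apart in untreated BMDMs, at 45.1 and 45.5 against 98.2 and 98.2 FPKM (1.08 ± 0.21, adjusted p = 0.349), where 0 of 4 members and 0.0432% of all genes were called. In those controls 2 members had an unadjusted p under 0.05, limma called 0 and DESeq2 called Itgax (1.08 ± 0.22, adjusted p = 0.000469). Without either CRE-labelled DMXAA library 0 members were called in the DMXAA comparison, without WT-labelled number 1 there were 3 and without number 2 only Itgax. With all 12 BMDM libraries, number 3 included, 0 members were called in any of these 5 comparisons.

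**Figure D5:**
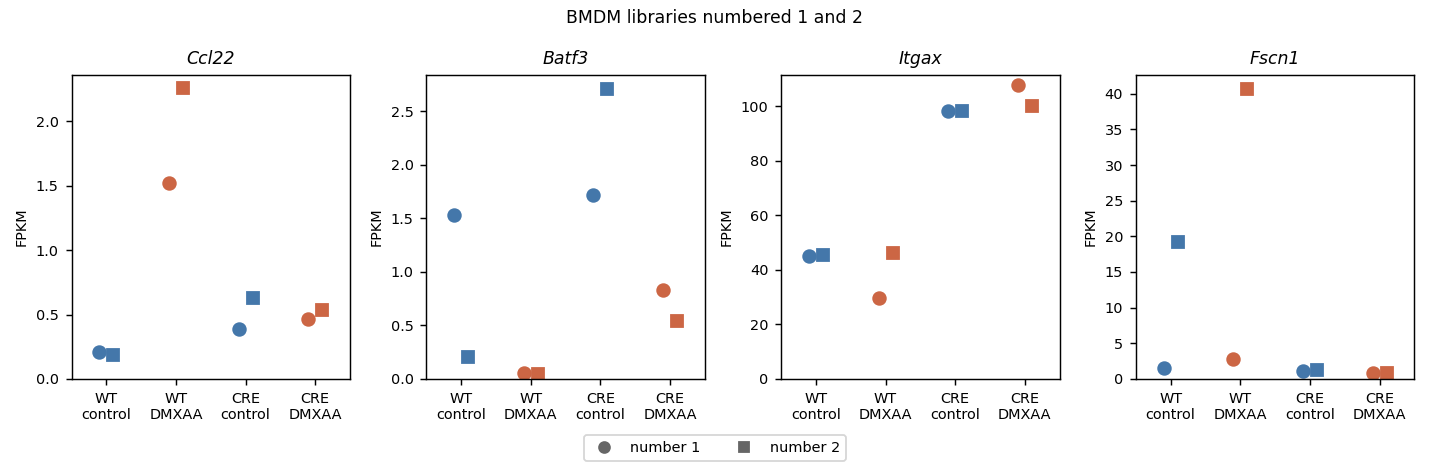
FPKM of Ccl22, Batf3, Itgax and Fscn1 in the 8 BMDM libraries numbered 1 and 2, by label and treatment. Ccl22 is above 1 FPKM only in the 2 WT-labelled DMXAA libraries, and Itgax lies at 98.2 to 107.7 FPKM in the 4 CRE-labelled libraries.

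Whether DMXAA acted differently in the 2 cell types was tested as an interaction. In WT-labelled cells 0 of 9 members were called, beside 2.61% of all genes, with 1 at an unadjusted p under 0.05, Batf3 at 4.01 ± 1.09 (adjusted p = 0.0665, edgeR), which DESeq2 called and limma did not. In CRE-labelled cells 0 of 9 were called, beside 0.606%, with 2 at an unadjusted p under 0.05: Fscn1 at 3.01 ± 1.40 and Batf3 at 1.42 ± 0.66, both with an adjusted p of 0.478. DESeq2 and limma called 0 there. For Ccr7 and Ccl17 the BMDM counts were too few to inform this comparison, with SEs of 1.77 to 4.12.

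Genes of the same programmes were read from lists. All counts stand beside the shares of all genes called, 32.2% in WT-labelled and 25.4% in CRE-labelled BMDCs and 39.2% and 10% in BMDMs. Of 25 tested genes of migratory or regulatory maturation, 16 rose and 1 fell in WT-labelled BMDCs and 10 rose and 1 fell in CRE-labelled BMDCs. Their median log2 fold changes were 1.67 and 1, beside 0.01 and -0.01 over all genes. Cd40, the costimulatory receptor, rose by 5.52 ± 0.69 (adjusted p = 0.000144, edgeR) and 4.41 ± 0.65 (0.000589), and Il15ra, which presents IL-15 to lymphocytes, by 4.87 ± 0.38 and 4.52 ± 0.37. Adam8, a surface protease, fell by 1.23 and 0.90 on the log2 scale. In BMDMs, 12 of 22 rose and 3 fell in WT-labelled and 6 rose and 1 fell in CRE-labelled cells, and 14 of 22 were lower and 2 higher in CRE-labelled than in WT-labelled DMXAA cells, beside 19.2% of all genes. The medians of these 3 comparisons were 1.75, 0.69 and -2.16.

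Identity genes were split. Of 15 tested conventional dendritic cell core genes, 5 rose and 3 fell in WT-labelled BMDCs and 5 rose and 0 fell in CRE-labelled BMDCs, among them Slamf7, a receptor of the SLAM family (3.34 ± 0.52, adjusted p = 0.000592, edgeR, and 2.58 ± 0.50). Hmgn3 was at 2.86, 1.66 and 2.4 FPKM in WT-labelled controls and at 23.9, 12.9 and 16.6 FPKM with DMXAA. The core list's medians were -0.45 and -0.16. Of 8 tested genes of the Batf3-dependent lineage, 3 rose and 2 fell in each label (medians 0.53 and 0.20). Tlr3, the endosomal receptor for double-stranded RNA, rose by 5.40 ± 0.46 and 5.52 ± 0.46, and the chemokine receptor Xcr1 by 5.13 ± 0.44 and 3.61 ± 0.40. Both also rose in WT-labelled and CRE-labelled BMDMs. In BMDCs both met the filter only through DMXAA libraries. Control BMDCs held 0.173 to 0.489 FPKM of Tlr3 and 0.0229 to 0.154 FPKM of Xcr1. Their rises in BMDCs are thus given as a description, and the count of 3 rests in part on the filter. In controls these transcripts were not particular to BMDCs: Tlr3 and Xcr1 were lower in WT-labelled BMDCs than BMDMs, and across BMDMs numbered 1 and 2 they reached 145 and 7.71 FPKM, above all BMDC libraries. In BMDCs Cd24a, a surface glycoprotein, fell by 1.99 and 1.39. Of 10 tested genes of the other conventional and monocyte-derived lineages, 1 rose and 2 fell in WT-labelled BMDCs and 1 rose and 1 fell in CRE-labelled ones (medians -0.49 and -0.47), a share near or below that of all genes. The lectin Clec10a fell by 1.59 and 1.39 and the transcription factor Irf4 rose by 0.78 ± 0.21 and 0.62 ± 0.21. Irf8, the partner factor of Batf3, rose by 2.57 ± 0.42 (adjusted p = 0.000829, edgeR) and 1.87 ± 0.41 (0.00607). Relb, an NF-kappaB subunit of mature dendritic cells, rose by 1.8 ± 0.31 and 1.17 ± 0.30. Irf8 and Slamf7 were not particular to BMDCs either. Irf8 was lower in BMDCs than BMDMs in controls of both labels. Slamf7 also rose in BMDMs of both labels and reached 296 FPKM there, above all BMDC libraries.

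The partners of these chemokines and enzymes were measured too. Ccl19 and Ccl21a, the ligands of Ccr7, were at 0 FPKM in all 24 libraries, and Ccr4, the receptor of Ccl17 and Ccl22, was at 0.0659 to 0.477 FPKM in BMDCs, so none of the 5 genes of that list was tested. Of 9 tested genes of tryptophan and kynurenine metabolism, 3 rose and 3 fell in WT-labelled BMDCs and 3 rose and 2 fell in CRE-labelled ones (medians 0.34 and 0.18). Kynu, the kynureninase, rose by 2.43 ± 0.44 (adjusted p = 0.00151, edgeR) and 2.01 ± 0.43, and Slc7a5, which imports tryptophan, fell by 3.31 and 2.91 on the log2 scale. Haao, which acts further down the pathway, fell by 1.82 and 1.78, and Wars, the tryptophanyl-tRNA synthetase, rose by 1.55 ± 0.26 and 1.72 ± 0.26. Ido2, the paralog of Ido1, was at 0.0445 to 0.507 FPKM in BMDCs and was not tested. Of 11 tested growth factor and IL-4 receptors and STATs, 6 rose in WT-labelled and 4 in CRE-labelled BMDCs and 0 fell (medians 0.80 and 0.62). Stat5a, which acts downstream of GM-CSF, rose by 2.24 ± 0.35 and 1.78 ± 0.35, and Il13ra1, which pairs with Il4ra, by 2.02 ± 0.18 and 1.91 ± 0.18. Il4ra itself (0.36 ± 0.17, adjusted p = 0.121) and Csf2rb, the shared chain of the GM-CSF receptor (0.09 ± 0.13, adjusted p = 0.673), did not pass.

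The genes whose pattern over the 12 BMDC libraries was nearest to a member were found by Pearson's r of log2(FPKM + 1) among 11217 genes. These libraries share treatment groups and cultures, so r is a description. Ccr7 was nearest to Gadd45b, Cd200 and Sh3bp4 (0.99 each), Fscn1 to Ccl8, Dusp1 and Csrnp1 (0.99 each), and Ccl22 to Adora2a (0.99), Gadd45b and Edn1 (0.98 each). Among the members, Ccr7 ran with Ccl22 (0.98) and Fscn1 (0.97), Ido1 with Ccl22 (0.96) and Cd209a against Ccl22 (-0.90). Ccl17 ran with Ccl22 at 0.36 only and was nearest to Aldh1a2 (0.98), which makes retinoic acid, Syt7 (0.97) and Calm3 (0.96). Ido1 was nearest to Irf8 (0.99).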

How the data were processed

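Processed values for 24 mouse RNA-seq libraries were used. Per the labels and the submitters' processing notes, the authors used CASAVA 1.8, fastp, HISAT2 2.0.5 on GRCm38/mm10, featureCounts 1.5.0-p3 and DESeq2 1.20.0; strand settings are not given in the sources used here. The deposited table holds raw counts and FPKM, scaled by the authors to an effective library size. Columns of the authors' group means, fold changes and p-values were not used. Total counts were 15657347 to 18912887 per library, so genes with few counts are imprecise, and intervals cover counting error only.

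Counts were tested with edgeR 4.0.16 (TMM, quasi-likelihood, Benjamini-Hochberg, adjusted p under 0.05) under R 4.3.3, in BMDCs, BMDMs numbered 1 and 2, or both, and scripts were tested on simulated data. Other settings, including DESeq2 1.42.0 and limma 3.58.1 on log2(FPKM + 1) and log2(FPKM + 0.1), are compared in the closing section. The members and lists were chosen with earlier results of these data known. List genes named are the largest called changes per list and partners fixed by role. Deviations of BMDC libraries of the same number correlated at 0.42 to 0.69 between control and DMXAA within a label, and at -0.51 to 0.03 across labels, so numbers pair libraries within labels.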

Additional observations from a re-analysis of the deposited data

Results flagged for a closer look

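In BMDMs numbered 1 and 2, the response of Ccl22 to DMXAA differed between the labels in a test of the difference itself, with an interaction of -3.19 on the log2 scale (SE 0.58, adjusted p = 0.0401, edgeR): it rose in WT-labelled libraries, and the CRE-labelled libraries of both treatments overlapped. The 8 libraries hold 9 to 76 Ccl22 counts each. Ccl22 met the filter only through the WT-labelled DMXAA libraries, where it is high, so this difference is read as a description. The call was lost with no filter (adjusted p = 0.0602, edgeR), under limma and, as given above, without several of the single libraries. In the BMDM libraries numbered 3, which entered only the alternative fits with all libraries, Fscn1 was at 216 FPKM or more. This was above all 8 other BMDM libraries, of which the highest held 40.7 FPKM. The libraries numbered 3 had summed fibroblast markers of 14498 to 23101 CPM, and the part of these markers in the Fscn1 level was not tested.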

How the results depend on the processing

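Of 268 counts of called members under other settings, 221 stayed within 1.5 times the reported count. Of 1295 values of single members, 1170 kept direction and call, 50 lost a call, 63 gained one and 12 changed sign. Not counted here are 39 uncalled values within 1 SE of 0, of which 30 changed sign somewhere (77 times). For the CRE-labelled BMDC response, 1 member was called as reported, 5 by DESeq2 with or without the study's thresholds (a log2 fold change of at least 1 and an unadjusted p), 3 by limma with either pseudocount, 2 with a replicate block, 6 with a replicate block within genotype (nested block), and 5 without both CRE-labelled libraries numbered 2 (added after seeing the data). The study's thresholds called 1 member (Ccr7) between labels in control BMDCs. For the WT-labelled BMDM response, reported as 2, the count was 0 with FPKM of at least 5, 1 by limma with either pseudocount, 1 with only the groups compared and 0 with all libraries. For the CRE-labelled one, reported as 0, it was 1 with the nested block and 1 with only the groups compared. Between labels in DMXAA BMDMs, reported as 2, it was 1 with FPKM of at least 5, 4 by DESeq2 with or without the study's thresholds and 0 with all libraries, and in control BMDMs 1 by DESeq2 and 3 with the study's thresholds. The BMDM interaction, reported as 1, was 0 with no filter, with FPKM of at least 5, by limma with either pseudocount and with all libraries, and 2 with the nested block. The cell type interaction, reported as 0, was 1 by DESeq2 with or without the study's thresholds and 2 with the nested block in WT-labelled cells, and 2 with the study's thresholds and 1 with the nested block in CRE-labelled cells. The cause of these changes was not tested.

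Leaving out 1 library gave 4 to 5 called members for the WT and 1 to 5 for the CRE BMDC response, and 0 to 0 for the 3 BMDC comparisons between labels. It gave 1 to 2 for the WT BMDM response, 0 to 0 for the CRE-labelled one, 0 to 3 between labels with DMXAA, 0 to 0 in controls and 0 to 2 for the interaction. Between cell types 5 of 9 members rest largely on the filter and are not counted. The other 4 stayed higher in BMDCs (log2 fold change of at least 1.01). The cell type interaction gave 0 to 1 (WT) and 0 to 0 (CRE). In BMDMs that leaves 1 library, assumed to vary like the other groups.

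Signs changed for Ido1 between labels in control BMDCs (-0.87 without CRE control 2, range -0.87 to 1.47 leaving out 1 library, and -0.87 without both number 2 libraries) and in the BMDC interaction (range -1.65 to 0.68, and 0.45 without both), and for Batf3 in the BMDM interaction (-0.18 by limma with a pseudocount of 1). With all libraries Fscn1 was 0.07 between labels in control BMDMs, and -1.27 and -0.46 between cell types in WT and CRE controls. In the cell type interaction, signs changed for Fscn1 without WT-labelled control BMDM number 2 (range -0.37 to 5.33), Itgax without WT-labelled DMXAA BMDM number 1 (-0.01 to 0.64), Cd209a without WT-labelled DMXAA BMDM number 2 (-5.66 to 0.47) and Zbtb46 without CRE-labelled control BMDM number 1 (-0.13 to 2.19).

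Over all genes, the nested block raised the calls from 3904 to 5911 (WT) and from 3084 to 5181 (CRE) in BMDCs, and only the groups compared gave 1853 for CRE. Between labels and in the interaction in BMDCs (0 reported) the study's thresholds gave 55 (DMXAA), 89 (control) and 54, and DESeq2 gave 1 in the interaction. In BMDMs, 4531 WT calls became 3001 with the study's thresholds, 1687 with only the groups compared and 10 with all libraries, and 1157 CRE calls became 6389 with only the groups compared, 2920 with the nested block, 1908 by DESeq2 and 0 with all libraries. Between labels, 2227 calls with DMXAA became 0 with all libraries, and 5 in controls became 126 by DESeq2, 355 with the study's thresholds, 11 and 8 by limma and 0 with all libraries or only the groups compared. The 424 interaction calls became 1195 by DESeq2 with or without those thresholds, 268 with no filter, 1702 with the nested block and 0 with all libraries. The cell type interactions, 349 (WT) and 81 (CRE), became 738 and 355 by DESeq2, 1101 and 819 with the study's thresholds, 1465 and 764 with the nested block, 527 and 181 by limma with a pseudocount of 1 (125 for CRE with 0.1), 196 and 28 with only the groups compared and 0 with all libraries. With all libraries the comparisons between cell types fell from 3812, 3658, 4092 and 4902 to 1252, 1183, 1419 and 2028. BMDM numbers share only a number (r of 0.68 between WT-labelled libraries, 0.01 to 0.15 otherwise), and that block also called Fscn1 there, in the WT response (0.88 ± 0.13, adjusted p = 0.00275, edgeR) and interaction (-1.41 ± 0.22, 0.0143).

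Few counts limit Flt3 and Ido1 in all libraries and Ccr7, Ccl17 and Cd209a in BMDMs.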
